A study of Mus musculus with 22 samples.

Results

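Vascular endothelial growth factor (VEGF) ligands, their receptors, the angiopoietins with their receptor, and pigment epithelium-derived factor were followed as 9 named genes: Vegfa, Vegfb, Pgf, Flt1, Kdr, Angpt1, Angpt2, Tek and Serpinf1. They were taken as a list of names, with no threshold on their values, and all 9 were found, 9 of the 53801 genes of the 2 bulk count tables and 9 of the 19324 genes of the single-cell matrix. The mice were wild type (WT) or homozygous for a germline deletion allele of the adiponectin receptor gene Adipor1 (AdipoR1-/-, here KO), labelled as strain C57BL/6J, untreated and of both sexes. Bulk RNA-Seq covered the retina and the retinal pigmented epithelium (RPE) at 30 days of age, with 4 libraries per genotype and tissue. RPE cells were shaken off the eyecup, so choroidal and other eyecup cells can remain in the pellet. Single-cell RNA-Seq covered the retina at 19, 25 and 30 days, with 1 library per genotype and age, made from 4 pooled retinae. Because both genotypes at 30 days were sequenced in a different batch from the younger libraries, that age and that batch cannot be told apart. The labels do not name the animal behind a bulk library, so p-values measure the spread between libraries.

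Endothelial cells grow and survive on VEGF signals, which Vegfa sends mainly through the receptor Kdr, while Flt1 binds Vegfa, Vegfb and Pgf tightly and acts in large part as a trap. Angpt1 activates the endothelial receptor Tek (Tie2) and steadies vessels, and Angpt2 in most settings opposes it. In the eye the RPE secretes Vegfa toward the choroidal capillaries and Serpinf1 (pigment epithelium-derived factor) as an inhibitor of vessel growth, while Müller glia and astrocytes provide Vegfa within the retina.

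The 250 bases before the annotated start of Vegfa, Kdr and Vegfb are shown because Vegfa changed in both tissues, Kdr passed in retina and Vegfb passed in neither, and because oxygen-regulated transcription acts through short promoter elements. The sequences are from RefSeq (GRCm38.p6), read 5′ to 3′ on the minus strand, at chr17:46032378-46032627 for Vegfa, chr5:75978456-75978705 for Kdr and chr19:6987652-6987901 for Vegfb. Capitals mark ACGTG or GCGTG, the core of a hypoxia response element, and GGGCGG, a GC box bound by Sp1-type factors, on either strand.
Vegfa: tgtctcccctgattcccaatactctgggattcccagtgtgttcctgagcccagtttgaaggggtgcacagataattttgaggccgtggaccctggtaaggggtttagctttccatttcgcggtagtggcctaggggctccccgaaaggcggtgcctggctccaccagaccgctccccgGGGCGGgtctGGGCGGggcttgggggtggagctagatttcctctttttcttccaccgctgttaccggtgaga
Kdr: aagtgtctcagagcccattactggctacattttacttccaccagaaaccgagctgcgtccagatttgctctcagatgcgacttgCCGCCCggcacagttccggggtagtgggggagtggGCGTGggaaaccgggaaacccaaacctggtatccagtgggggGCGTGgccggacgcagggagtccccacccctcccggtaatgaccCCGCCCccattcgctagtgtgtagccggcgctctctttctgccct
Vegfb: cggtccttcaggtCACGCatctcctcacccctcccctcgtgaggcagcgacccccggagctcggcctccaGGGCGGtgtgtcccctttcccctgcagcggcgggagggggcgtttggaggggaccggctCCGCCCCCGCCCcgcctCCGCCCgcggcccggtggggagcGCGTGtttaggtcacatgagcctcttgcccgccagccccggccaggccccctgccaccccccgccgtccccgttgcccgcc
Vegfa held 0 hypoxia cores and 2 GC boxes in this window, Kdr held 2 cores and 2 boxes, and Vegfb held 2 cores and 4 boxes. A second annotated Vegfa start has another window of this length, at chr17:46025164-46025413 and not printed, which held 2 cores and 1 GC box. That window lies inside the gene bounds of Vegfa, not upstream of the gene. Sequence more than 250 bases before a start was not searched, so an absent core here does not mean that the gene lacks one. Of 32851 promoters of this length, 38.6% held a core and 32.7% a GC box, so neither motif is rare, and a match is a description of the letters only. A promoter entry was found for 7 of the 9 members.

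In mm10 (GRCm38) coordinates with GENCODE M21 gene bounds, Vegfa lies on chromosome 17 from 46016993 to 46032369, Vegfb on 19 from 6982473 to 6987651 and Pgf on 12 from 85166635 to 85177790. Flt1 and Kdr both lie on chromosome 5, from 147561604 to 147726011 and from 75932827 to 75978458. Angpt1 spans 42424723 to 42676977 on chromosome 15 and shares 737 exon bases with the antisense gene Gm17473, so without strand information their reads could not be told apart. Angpt2 lies on chromosome 8 from 18690263 to 18741562, inside an intron of Mcph1 with no shared exon. Tek spans 94739289 to 94874976 on chromosome 4 and Serpinf1 75409769 to 75422701 on chromosome 11.

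Adipor1 itself fell to 0.231-fold in KO retina (136 to 142 CPM, counts scaled to a common library size, against 589 to 607; edgeR quasi-likelihood test with Benjamini-Hochberg adjustment, adjusted p = 4.61e-13) and to 0.356-fold in KO RPE (139 to 152 against 374 to 479; edgeR adjusted p = 0.000207). Total counts were 22734843 to 35118164 in retina and 20133143 to 38409496 in RPE libraries. The spread between RPE libraries was wider, with a common biological coefficient of variation of 0.295 against 0.0921 in retina. In bulk tissue, fewer cells of a type and less RNA per cell cannot be told apart.

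In WT mice the RPE carried more of both Vegf ligands than the retina, and far more Pgf and Serpinf1. Of the 9 members 7 differed between the WT tissues, 6 higher and 1 lower in RPE (edgeR over both tissues, adjusted p under 0.05), where 84.6% of all genes tested differed, 43.0% of all genes tested being higher and 41.6% lower. Vegfa was 4.77-fold higher in RPE (edgeR adjusted p = 6.68e-12) and Vegfb 4.14-fold (3.33e-11). Pgf was 21.2-fold higher in RPE (edgeR adjusted p = 5.45e-10), Serpinf1 21.6-fold (8.88e-11), Angpt1 7.04-fold (8.95e-10) and Tek 2.88-fold (1.64e-05). Kdr was the member that ran the other way, at 0.453-fold in RPE (edgeR adjusted p = 5.93e-05). Flt1 (log2 difference -0.02, edgeR adjusted p = 0.923) and Angpt2 (log2 difference -0.47, edgeR adjusted p = 0.0756) did not pass. Angpt2 passed without KO RPE library 3 (0.00761), without WT RPE library 2 (0.0477), by DESeq2 (0.0412) and with scaling by library totals alone (0.0118). Markers of several cell types went with these differences: 11 of 12 endothelial, 8 of 10 pericyte and all 5 fibroblast markers were higher in WT RPE, as were all 12 RPE markers, and their part in the members' differences was not tested.

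Ranked by CPM per kilobase of exon with both tissues scaled together, Vegfa was the most abundant member in WT retina (35.7 ± 1.23, SD, n = 4). Kdr (17.1 ± 2.38) and Vegfb (15.3 ± 0.797) came next with overlapping libraries, then Flt1 (4.74 ± 0.419) and Tek (1.92 ± 0.330). Serpinf1 (1.19 ± 0.178) overlapped Angpt2 (1.06 ± 0.112), and Pgf (0.293 ± 0.152) overlapped Angpt1 (0.218 ± 0.0464). The order in the RPE was different below its head. Vegfa led at 170 ± 17.8 CPM per kilobase, followed by Vegfb (63.5 ± 9.36) and Serpinf1 (25.6 ± 8.18). Kdr (7.75 ± 2.66), Pgf (6.25 ± 0.315), Tek (5.52 ± 1.91) and Flt1 (4.69 ± 0.830) came next, each overlapping its neighbours in this order, although Pgf and Flt1 did not overlap each other, and Angpt1 (1.54 ± 0.262) and Angpt2 (0.770 ± 0.163) closed the list.

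**Figure D1:**
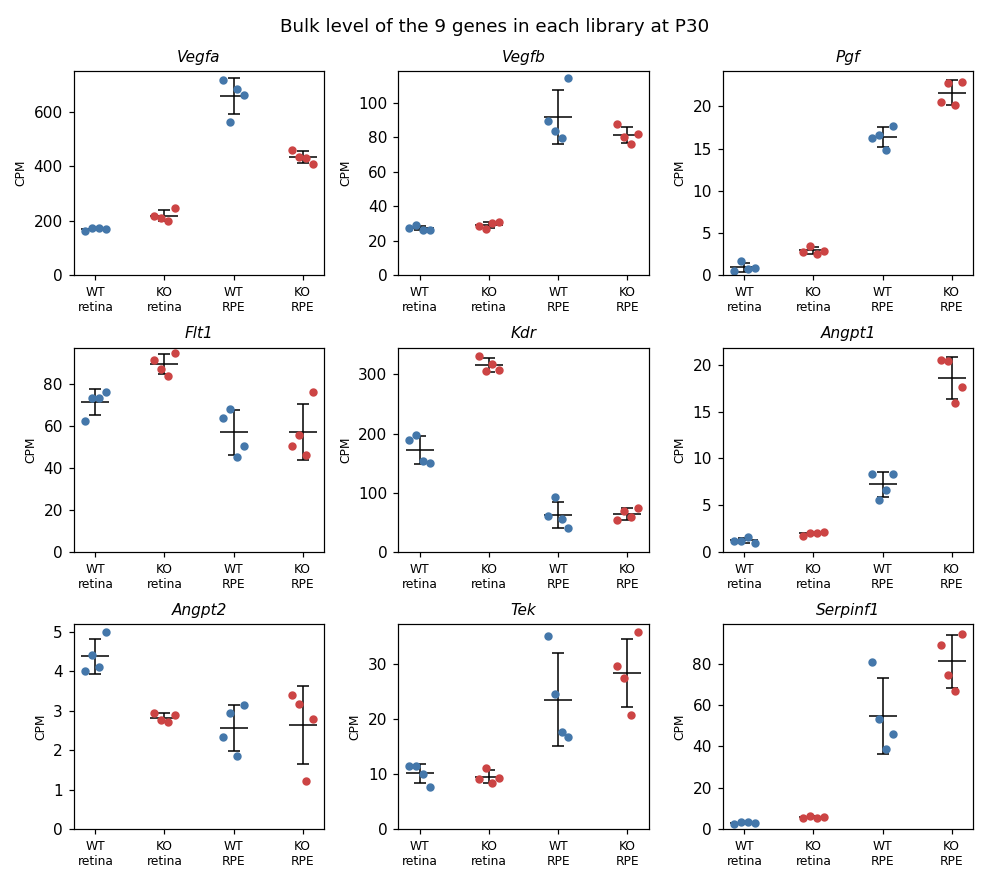
Level of each of the 9 members in every bulk library (CPM, linear axis from 0), by tissue and genotype, with 4 points per group, a line at the group mean and error bars of 1 SD. Vegfa libraries of KO mice lie above all WT libraries in retina (199 to 247 against 162 to 175 CPM) and below all of them in RPE (410 to 461 against 564 to 718 CPM).

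Loss of Adipor1 went with more of most of these transcripts in the retina at 30 days. Of the 9 members 7 passed, 6 higher and 1 lower in KO, against 30.9% of all 19381 genes tested, and 5 of the 9 were differentially expressed genes (DEGs, adjusted p under 0.05 and at least 1.5-fold), against 10.0% of all genes. Of all genes that passed, 52.5% were higher in KO, and 79.8% with library totals as the only scaling, which moved the median of all genes to 0.114. KO and WT libraries did not overlap for 7 members, against 31.4% of all genes. The members' median log2 fold change was 0.36 and that of all genes 0.0036.

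Among the ligands, Vegfa read 162, 175, 174 and 172 CPM in the WT retinas and 218, 211, 199 and 247 CPM in the KO retinas. Every KO library was above every WT library, and Vegfa rose 1.28-fold (log2 0.36, SE 0.0575, edgeR adjusted p = 0.000339). Pgf, the placental growth factor that binds Flt1 but not Kdr, rose most of the 9, from 0.510, 1.66, 0.791 and 0.846 CPM in WT to 2.80, 3.51, 2.57 and 2.90 CPM in KO. These groups were apart and the rise was 3.09-fold (log2 1.63, 95% CI 1.11 to 2.15, edgeR adjusted p = 0.000369), on raw counts of 15 to 47 in WT and 69 to 117 in KO libraries. Vegfb overlapped between the genotypes, at 26.2 to 29.4 CPM in WT and 27.0 to 31.2 CPM in KO, and did not pass (log2 0.09, 95% CI -0.04 to 0.21, edgeR adjusted p = 0.333), although it passed with that scaling by library totals (edgeR adjusted p = 0.0242).

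Both VEGF receptors rose in the KO retina. Kdr, which carries most of the growth signal of Vegfa in vessels, read 189, 198, 154 and 150 CPM in WT and 331, 306, 318 and 308 CPM in KO retinas. No KO library came near the WT range, and the rise was 1.83-fold (log2 0.87, SE 0.0786, edgeR adjusted p = 2.02e-06). Flt1 read 62.4, 73.5, 73.5 and 76.6 CPM in WT and 91.5, 87.5, 84.0 and 94.95 CPM in KO retinas. It rose 1.25-fold, under the DEG threshold, with the groups apart (log2 0.32, SE 0.0613, edgeR adjusted p = 0.00124). Over the same libraries the summed level of 12 endothelial markers was 116 to 122 CPM in KO and 126 to 139 CPM in WT, with 3 of the 12 lower. The 3 markers of fenestrated choroidal endothelium went the other way, summing to 25.8 to 32.3 CPM in KO and 9.66 to 14.2 CPM in WT, with Plvap (log2 1.58) and Vwf (1.19) higher and Car4 (-0.66) lower. The 10 Müller glia markers summed to 5980 to 6390 CPM in KO and 4550 to 4950 CPM in WT, with 7 higher and 1 lower, and the 10 rod markers summed to 33600 to 38300 CPM in KO and 64800 to 71600 CPM in WT, with 9 lower. All 11 microglia markers rose, from a sum of 47.6 to 51.4 CPM in WT to 196 to 237 CPM in KO, and the 10 pericyte markers summed to 129 to 142 CPM in KO and 130 to 138 CPM in WT. Their part in the rise of the members was not tested.

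The angiopoietins moved in opposite directions in the KO retina. Angpt1 rose 1.58-fold, from 1.23, 1.16, 1.66 and 1.02 CPM in WT to 1.76, 2.07, 2.00 and 2.19 CPM in KO (log2 0.66, SE 0.172, edgeR adjusted p = 0.0108), on 29 to 44 raw counts in WT and 52 to 69 in KO libraries. Angpt2 fell to 0.645-fold, from 4.01, 4.41, 4.11 and 5.00 CPM to 2.94, 2.76, 2.71 and 2.90 CPM (log2 -0.63, SE 0.112, edgeR adjusted p = 0.000753). Both pairs of groups were apart. Tek, their receptor, overlapped between WT (7.68 to 11.4 CPM) and KO (8.43 to 11.2 CPM) and did not pass (log2 -0.09, 95% CI -0.34 to 0.16, edgeR adjusted p = 0.632; log2 0.02 when scaled by library totals alone). Flt1 and Angpt2 lost their call in a fit that shared 1 estimate of the spread with the RPE libraries (edgeR adjusted p = 0.171 and 0.0958).

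Serpinf1, the vessel growth inhibitor, read 2.52, 3.63, 3.32 and 3.07 CPM in WT and 5.17, 6.38, 5.59 and 5.59 CPM in KO retinas. The groups were apart and the rise was 1.81-fold (log2 0.86, SE 0.126, edgeR adjusted p = 0.000156). Serpinf1 was far higher in bulk WT RPE than in WT retina, but choroidal and other eyecup cells can remain in that pellet. The 12 RPE markers summed to 102 to 172 CPM in KO and 63.3 to 127 CPM in WT retinas, with 2 higher. The fibroblast markers summed to 12.3 to 88.1 CPM in KO and 7.52 to 11.8 CPM in WT, with 3 of the 4 tested higher. The astrocyte markers summed to 53.4 to 63.7 and 28.9 to 40.7 CPM, with 1 of 5 higher. Their part in the rise of Serpinf1 was not tested.

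In the RPE fewer members changed and the leading ligand went down. Of the 9 members 3 passed, 2 higher and 1 lower in KO, against 6.73% of the 18989 genes tested, and 2 were DEGs, against 4.97% of all genes. The genotypes did not overlap for 3 members, against 15.2% of all genes, and the median log2 fold change was 0.05 for the members and -0.02 for all genes.

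Vegfa read 718, 564, 684 and 661 CPM in WT RPE and 461, 434, 432 and 410 CPM in KO RPE. The highest KO library was below the lowest WT library, and Vegfa fell to 0.662-fold (log2 -0.60, SE 0.0881, 95% CI -0.77 to -0.42, edgeR adjusted p = 0.00698). The 12 RPE markers summed to 35000 to 36900 CPM in KO and 24000 to 37500 CPM in WT, with 1 higher and 2 lower and a median log2 change of -0.09. Microglia markers summed to 736 to 823 CPM in KO and 387 to 636 CPM in WT RPE, with 9 of 11 higher. Rod markers summed to 697 to 5800 and 1080 to 17100 CPM, and 0 of 10 passed. Lens markers summed to 8.01 to 23.3 and 15.9 to 760 CPM, with 2 of 6 lower. The part of these cell types in the members' changes was not tested. Pgf rose 1.32-fold, from 16.3, 16.7, 14.8 and 17.7 CPM in WT to 20.5, 22.8, 20.2 and 22.9 CPM in KO, with the groups apart (log2 0.40, SE 0.0859, edgeR adjusted p = 0.0308). That call did not hold without KO library 1, 2 or 4 (edgeR adjusted p = 0.0703, 0.0849 and 0.108), without WT library 3 (0.0693), or in the fit shared with the retina (0.196). Vegfb overlapped, at 80.0 to 114 CPM in WT and 76.1 to 87.8 CPM in KO (log2 -0.17, 95% CI -0.40 to 0.05, edgeR adjusted p = 0.437).

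Angpt1 changed most of the 9 in the RPE. It read 8.30, 5.58, 6.68 and 8.37 CPM in WT and 20.5, 20.4, 16.0 and 17.6 CPM in KO RPE. The groups lay far apart, and Angpt1 rose 2.58-fold (log2 1.37, SE 0.159, 95% CI 1.05 to 1.68, edgeR adjusted p = 0.00248). Vegfa and Angpt1 kept their calls whichever of the 8 RPE libraries was left out (edgeR adjusted p 0.00172 to 0.0354 and 0.00278 to 0.0120).

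The endothelial members were not resolved in the RPE, where WT libraries alone spread over more than the size of any difference. Kdr ranged from 41.7 to 92.5 CPM in WT and 53.9 to 75.2 CPM in KO (log2 0.04, 95% CI -0.41 to 0.49, edgeR adjusted p = 0.943). Flt1 ranged from 45.4 to 68.1 and 46.2 to 76.4 CPM (log2 0.00, 95% CI -0.37 to 0.37, edgeR adjusted p = 0.996), and Tek from 16.7 to 35.1 and 20.8 to 35.8 CPM (log2 0.27, 95% CI -0.24 to 0.79, edgeR adjusted p = 0.588). The 12 endothelial markers summed to 515 to 778 CPM in KO and 622 to 888 CPM in WT RPE, with 1 lower. Angpt2 was at 1.85 to 3.14 CPM in WT and 1.21 to 3.40 CPM in KO (log2 0.05, 95% CI -0.60 to 0.69, edgeR adjusted p = 0.951). Serpinf1 read 80.9, 53.1, 38.7 and 46.1 CPM in WT and 89.0, 74.4, 66.7 and 94.4 CPM in KO. Its groups overlapped through WT library 1 and it did not pass (log2 0.57, 95% CI 0.12 to 1.02, edgeR adjusted p = 0.213), but it passed without that library (0.0196) and in the fit shared with the retina (0.0416).

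**Figure D2:**
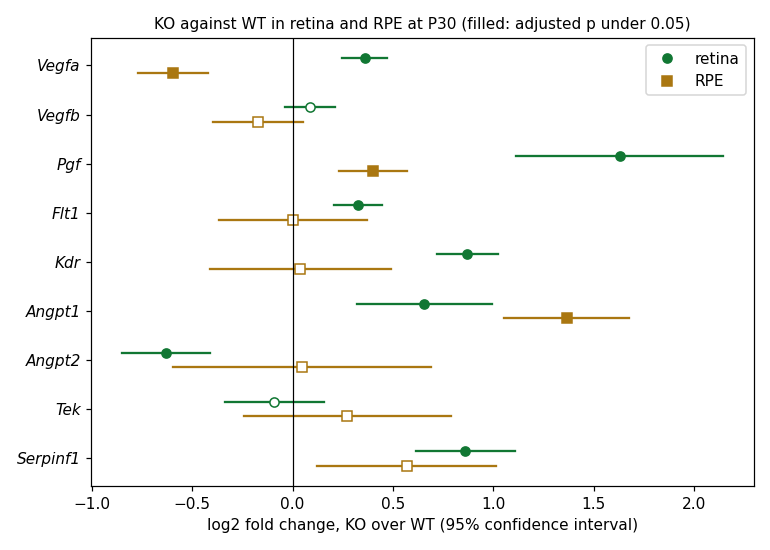
Log2 fold change of KO over WT for the 9 members in retina and RPE (n = 4 libraries per genotype and tissue). Bars are approximate 95% confidence intervals, derived from the edgeR fold change and F statistic with a normal quantile. Filled symbols have an edgeR adjusted p under 0.05, and a line marks 0. Vegfa sits on opposite sides of 0 in the tissues (0.36 in retina and -0.60 in RPE), and the RPE intervals are the wider ones for all 9 members except Pgf and Angpt1.

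The difference between the tissues was itself tested. The KO effect differed for 2 of the 9 members, against 8.84% of the 21068 genes in the joint fit. For Vegfa the effect in RPE minus that in retina was -0.94 on the log2 scale (SE 0.115, 95% CI -1.16 to -0.71, edgeR adjusted p = 0.000152). For Pgf it was -1.20 (SE 0.312, 95% CI -1.82 to -0.59, edgeR adjusted p = 0.0254), a larger rise in retina than in RPE. The Pgf difference did not hold without KO RPE library 1 (edgeR adjusted p = 0.0502), KO retina library 2 (0.0561), WT retina library 3 (0.0639) or WT retina library 4 (0.0608). Kdr (-0.81, edgeR adjusted p = 0.0725), Angpt1 (0.73, 0.0551) and Angpt2 (0.71, 0.235) did not pass, so a retina-only change of Kdr or Angpt2 was not shown by this test. Kdr passed by DESeq2 (adjusted p = 0.0406), with library totals (0.0449) and without WT RPE library 4 (0.0125). Angpt1 passed by DESeq2 (adjusted p = 0.046) and without KO RPE library 3 (0.0486), WT RPE library 1 (0.0405), WT RPE library 4 (0.0466) or WT retina library 4 (0.0423), and Angpt2 passed without KO RPE library 3 (0.0143).

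Other genes of the same pathways were read from lists, beside the 30.9% of all genes that passed in retina and the 6.73% in RPE. In retina, Nrp1, a coreceptor of Kdr, was the 1 of 5 other VEGF ligands and receptors to rise (log2 0.53, edgeR adjusted p = 0.000146), and Angpt4 was the 1 of 4 other angiopoietin-Tie genes to fall (log2 -1.18, edgeR adjusted p = 0.0128). Of 16 genes listed as other angiogenic ligands 7 rose and 2 fell. The smallest p-values were those of Edn2 (log2 6.83, edgeR adjusted p = 8.76e-15), an endothelin made by stressed photoreceptors, and the growth factor Fgf2 (log2 3.67, edgeR adjusted p = 2.64e-13). The list is of names only, and whether a listed gene promotes or restrains vessel growth in this retina was not measured. Of 9 angiogenesis inhibitors other than Serpinf1 7 rose and 1 fell, among them Adamts1 (log2 1.30, edgeR adjusted p = 3.29e-09) and Htra1 (log2 0.85, edgeR adjusted p = 3.12e-08) upward and the collagen Col4a3 downward (log2 -1.18, edgeR adjusted p = 3.68e-05). The median log2 change was 0.69 for these inhibitors and 0.21 for the ligands, against 0.0036 for all genes, and no list was tested as a group.

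Of 18 hypoxia response targets tested in retina 5 rose and 1 fell, a share near that of all genes, with a median log2 change of 0.04, and Epas1 was the 1 of 8 hypoxia inducible factor regulators to rise (log2 0.29, edgeR adjusted p = 0.0029). Among the targets, Egln3 was at log2 0.85, the glycolytic activator Pfkfb3 at 0.42 and Ndrg1 at -0.33, each past the edgeR threshold. In the norrin pathway, which patterns retinal capillaries, Fzd4 fell (log2 -0.54, edgeR adjusted p = 1.78e-05) while Lrp5 (0.68, 0.000322) and Ndp (0.37, 0.00887) rose. Notch and tip cell genes split evenly, with 2 of 9 higher and 2 lower.

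In RPE, 2 genes passed in each of 4 lists, of 5 other VEGF genes, 16 other ligands, 9 inhibitors and 19 hypoxia targets. Vegfc, the lymphatic VEGF ligand, rose (log2 0.68, edgeR adjusted p = 0.0358) and Nrp2 fell (log2 -0.47, edgeR adjusted p = 0.0475) among the 5 other VEGF genes. Edn2 (log2 5.28, edgeR adjusted p = 0.01) and Fgf2 (1.66, 0.0450) were the 2 of 16 other ligands to rise. Thbs1, a secreted inhibitor, rose (log2 1.07, edgeR adjusted p = 0.00524) and Col18a1, the source of endostatin, fell (-0.72, 0.0310). Pdk1 rose and Slc2a1 fell among 19 hypoxia targets (log2 0.59 and -0.44, edgeR adjusted p = 0.0225 and 0.0354), while 0 of the 4 Tie, 6 norrin, 10 Notch and 8 hypoxia inducible factor regulator genes passed by edgeR, with 0, 1, 2 and 3 of them at an unadjusted p under 0.05.

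Genes whose levels followed a member most closely were listed over the 16 bulk libraries as a description, since those libraries fall into 2 tissues and a high Pearson r mostly mirrors the tissue difference. For Tek they were Adgrg3 (r = 0.991), Pecam1 (0.990) and Tnfsf10 (0.989). For Kdr they were Klf7 (r = 0.983), Syt15 (0.982) and Myb (0.979), and for Vegfa Fbxo10 (0.994), Scp2 (0.993) and Ndrg2 (0.993). Angpt2 and Flt1, which did not pass between the WT tissues, reached only 0.818 with Gnb4 and 0.840 with Shank3.

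The cell classes that held each transcript were read in 26764 single cells, and 49 cell barcodes occurred in more than 1 library. Libraries had 2558 to 5633 cells, with median depths of 1349 to 4357 unique molecular identifiers (UMIs) per cell. Cell classes were rebuilt here from marker genes and may differ from those of the study. Levels are UMIs of the gene per 10000 UMIs of the class, shares are the percent of a gene's UMIs in a class, and the 95% intervals (exact Poisson and exact binomial) cover counting error only. Shares depend on which cells were recovered and how deep they were, so they do not measure the source in the tissue. Named rods were 2.04% of WT cells at 19 days, with 16.1% in a rod-like unnamed cluster, and 52.2% at 30 days. The 30-day libraries held 5172257 and 6207355 UMIs, against at least 21429436 in each younger library, while bulk tissue was from 30 days.

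**Figure D3:**
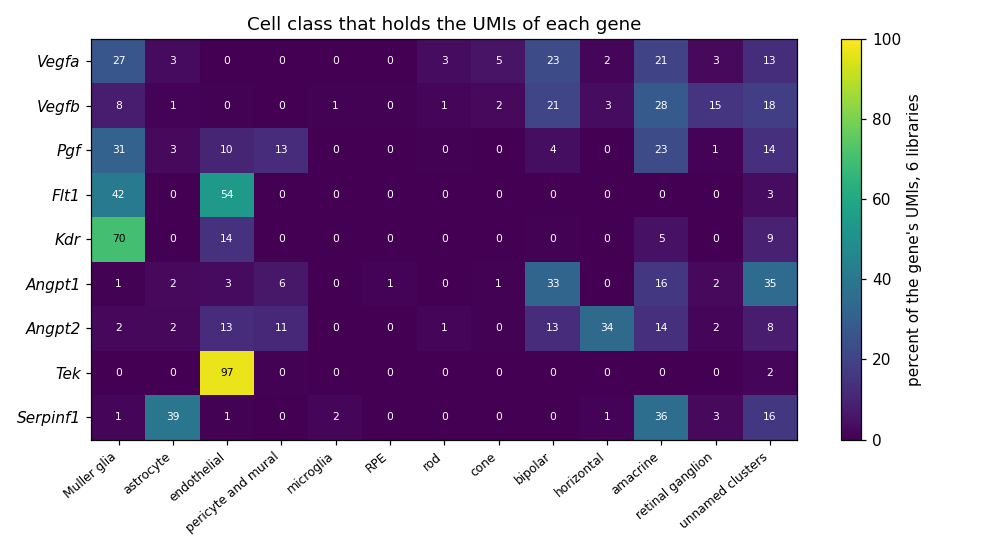
Percent of the UMIs of each of the 9 members that fell in each cell class, over all 6 single-cell libraries, as a grid with the rounded percent in each box and the unnamed clusters in the last column. Tek is almost wholly in endothelial cells (97.0%), Kdr mostly in Müller glia (70.0%), and Flt1 in both.

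The receptors separated into an endothelial and a glial pattern. Of 1027 Tek UMIs 97.0% (95.7 to 97.9) were in endothelial cells, where the level was 3.50 per 10000. Of 13017 Flt1 UMIs 53.7% (52.8 to 54.5) were endothelial and 41.7% were in Müller glia, with levels of 24.5 and 5.68 per 10000. Without the 5% of cells with most UMIs, the endothelial share of Flt1 was 28.7%. Endothelial cells had medians of 7152 to 11300 UMIs at 19 and 25 days, so that setting takes out cells of this class itself. Kdr was mainly glial among the recovered cells: 70.0% (69.2 to 70.8) of 11963 UMIs were in Müller glia and 14.4% in endothelial cells. Its pooled level was 8.77 per 10000 in Müller glia and 6.07 in endothelial cells. The level was the higher in Müller glia in 5 of 6 libraries and not in the KO library at 19 days (6.42 against 6.64 in endothelial cells). Müller glia held 9.24% and endothelial cells 2.76% of all UMIs.

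Among the ligands, Vegfa was spread widely. Müller glia held 26.8% (25.9 to 27.7) of its 9276 UMIs, bipolar cells 23.1% and amacrine cells 20.7%, but in WT libraries alone bipolar cells led with 26.9% over Müller glia with 22.2%, while the level was highest in astrocytes at 4.04 per 10000 (3.58 to 4.54), followed by Müller glia at 2.60 (2.50 to 2.71). The class of lowest level was microglia at 0.0475 per 10000, from only 4 to 40 cells per library, and stray RNA was not measured. Vegfb was neuronal in the main, with 28.3% of 7547 UMIs in amacrine cells and the level highest in ganglion cells at 2.35 per 10000. Pgf was sparse, 437 UMIs in all, of which 31.4% (27.0 to 35.9) were in Müller glia and 23.1% in amacrine cells. The genotypes differed in this share: Müller glia held 8.92% of the 157 Pgf UMIs in WT libraries, where amacrine cells led with 36.9%, and 43.9% of the 280 in KO libraries, and the share was 21.3% without the KO library at 25 days. The pooled Pgf level was highest in pericytes and mural cells at 1.23 per 10000 (0.928 to 1.60), against 0.143 in Müller glia and 0.162 in endothelial cells.

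Among the named classes horizontal cells, interneurons of the outer retina, held the largest share of Angpt2, 34.5% (30.3 to 38.8) of 502 UMIs, and the pooled level there, 0.644 per 10000, was below that of pericytes and mural cells, 1.21. That horizontal cell share was 8.61% without the 5% of cells with most UMIs. Horizontal cells were deep, with medians of 8816 to 22716 UMIs per cell by library, against 1349 to 4357 over all cells. That setting therefore takes out cells of this class itself, and the lower share says little about the source of Angpt2. Angpt1 had 379 UMIs, 32.7% in bipolar cells and 24.3% in a cluster left unnamed, and the bipolar share was 43.7% in WT and 22.4% in KO libraries. Serpinf1 had 903 UMIs, 39.2% (36.0 to 42.5) in astrocytes, 36.2% in amacrine cells and 15.6% in a cluster with fibroblast and lens genes. The astrocyte share rested on the KO library at 25 days, which gave 284 of the astrocyte UMIs from 20 cells: without it astrocytes held 13.2% and amacrine cells 55.2%, and in WT libraries alone 6.25% and 61.3%. The RPE-like class held 3 Serpinf1 UMIs in 83 cells, a level of 0.129 per 10000.

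Genotypes were compared within a class over the 3 ages, with age in the model, for 5 classes with at least 50 cells in each library. The share of all genes past the limma threshold was 1.44% in Müller glia, 0.0207% in amacrine, 0.0295% in bipolar, 0.0191% in cone and 0.0362% in rod cells. By limma-trend 0 of 25 member and class pairs passed, 4 had an unadjusted p under 0.05, and edgeR called 1. The same model gave Adipor1 differences of log2 -1.60 to -2.22, which passed in 4 of these 5 classes and not in bipolar cells (limma adjusted p = 0.0756).

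The pair nearest to the threshold was Pgf in Müller glia. Its level was 0.0393 (WT, 6 UMIs) and 0.107 (KO, 26 UMIs) per 10000 at 19 days, 0.0294 (WT, 5 UMIs) and 0.232 (KO, 73 UMIs) at 25 days, and 0.118 (WT, 3 UMIs) and 0.492 (KO, 24 UMIs) at 30 days. The Poisson intervals of WT and KO overlapped at 19 and 30 days and were apart at 25 days. KO was higher at 3 of 3 ages, by 4.04-fold over ages, but the test did not pass (log2 2.01, SE 0.381, 95% CI 1.13 to 2.90, limma adjusted p = 0.0542). Over its alternatives the adjusted p ran from 1.85e-07 to 0.146, and edgeR made the call. By limma the call was made without the 19-day libraries (adjusted p = 0.000697) and without the 30-day libraries (5.96e-06). It was not made without the 25-day libraries (limma adjusted p = 0.0839). Few libraries remain when an age is left out, so these p-values are unstable and lend the call no support. At 25 days 59 of 533 KO Müller glia and 5 of 380 WT Müller glia held a Pgf UMI.

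Kdr within the Müller glia class had no common direction over the ages. Its level was 8.66 and 6.42 per 10000 in WT and KO at 19 days, 10.4 and 11 at 25 days, and 3.71 and 3.65 at 30 days. The fitted difference over ages was log2 0.01 (95% CI -0.28 to 0.29, limma adjusted p = 0.983). It pools the ages within 1 class, while the bulk value of 0.87 is from whole retina at 30 days, so the values are not alike. Over all cells of a library, Kdr was 0.932 and 1.02 per 10000 at 19 days, 1.15 and 2.05 at 25 days, and 0.236 (0.196 to 0.282) and 0.332 (0.288 to 0.380) at 30 days in WT and KO. The Müller glia share of all UMIs went the same way, from 6.01 to 10.5% at 19 days, 7.83 to 14.7% at 25 days and 4.90 to 7.86% at 30 days, WT to KO, and its share of cells was 6.75 and 9.40%, 8.70 and 9.46%, and 5.04 and 4.44%. At 25 days 1 further cluster left unnamed, with 105 of its 118 cells from the KO library, held 332 Kdr UMIs. The part of these shares in the bulk rise was not tested.

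**Figure D4:**
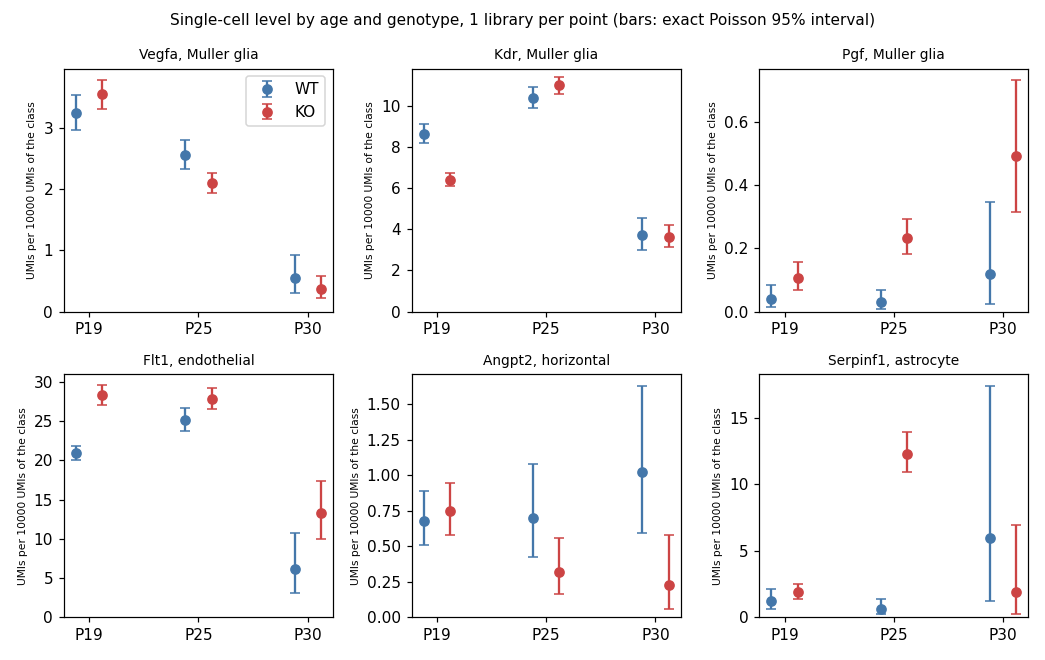
Level (UMIs per 10000 UMIs of the class, linear axis from 0) of 6 selected member and class pairs at 19, 25 and 30 days in WT and KO libraries, with exact Poisson 95% intervals and 1 library per point. Pgf in Müller glia is higher in KO at all 3 ages (0.232 against 0.0294 at 25 days), with overlapping intervals at 19 and 30 days. Kdr in Müller glia is nearly the same at 30 days (3.65 against 3.71).

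Vegfa in Müller glia had no common direction, at 3.25 and 3.55 per 10000 in WT and KO at 19 days, 2.56 and 2.1 at 25 days and 0.552 and 0.369 at 30 days (log2 -0.11, 95% CI -0.46 to 0.24 over ages). Both genotypes had less Vegfa and Kdr in Müller glia at 30 days than at the younger ages, where age and batch cannot be told apart. Neurons had small positive differences that did not pass: log2 0.28 in amacrine (95% CI 0.04 to 0.52, limma adjusted p = 0.812) and 0.26 in bipolar cells (95% CI 0.01 to 0.51, limma adjusted p = 0.819). Rods had log2 1.27 (95% CI 0.24 to 2.30, limma adjusted p = 0.568), but only 111 and 51 WT cells bore that name at 19 and 25 days. Most WT rods at those ages were in a cluster left unnamed for low depth together with no rod marker among its most raised genes. All 10 rod markers were nonetheless raised in it.

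By cluster number, with no test, Vegfa was 0.866 per 10000 (0.713 to 1.04) in the KO rod cluster and 0.251 (0.170 to 0.359) in the unnamed WT cluster at 19 days. At 25 days the values were 0.532 (0.445 to 0.630) and 0.272 (0.176 to 0.401). At 30 days the main KO rod cluster had 0.105 (0.0675 to 0.157) and the main WT rod cluster 0.0519 (0.0238 to 0.0986). The second is near the pooled level of microglia, which is not a measured background. The KO and WT rods formed different clusters at every age, so these values compare clusters as well as genotypes.

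Endothelial cells, astrocytes and horizontal cells were too few for a test, and their values are from 1 library each. Flt1 in endothelial cells was 20.9 (20 to 21.8) in WT and 28.3 (27.0 to 29.6) in KO at 19 days, 25.1 (23.7 to 26.6) and 27.8 (26.5 to 29.2) at 25 days, and 6.12 (3.16 to 10.7) and 13.3 (9.97 to 17.4) per 10000 at 30 days, where only 8 and 17 endothelial cells were found. The KO value was the higher at every age. Tek in endothelial cells had no common direction, at 3.69 and 3.29, 2.94 and 4.01, and 1.53 and 2.51 per 10000.

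Angpt2 in horizontal cells was 0.677 in WT and 0.747 in KO at 19 days, 0.701 (0.428 to 1.08) and 0.319 (0.165 to 0.557) at 25 days, and 1.02 (0.594 to 1.63) and 0.226 (0.0617 to 0.580) per 10000 at 30 days, with 16 WT and 19 KO cells at the last age. The lower KO level at 30 days went the same way as the fall of Angpt2 in bulk retina at that age, while at 19 days the KO level was the higher. In bulk retina the 6 horizontal cell markers summed to 303 to 316 CPM in KO and 327 to 346 CPM in WT, with 3 lower and 2 higher. Their part in the fall of Angpt2 was not tested. Serpinf1 in astrocytes was 0.651 (0.239 to 1.42, 6 UMIs in 13 cells) in WT and 12.3 (10.9 to 13.9, 284 UMIs in 20 cells) per 10000 in KO at 25 days, and 1.20 and 1.88 at 19 days. In the KO library at 25 days 16 of the 20 astrocytes held Serpinf1, with up to 41 UMIs in a cell, and at 30 days the levels were 5.94 in 1 WT astrocyte and 1.91 in 2 KO astrocytes.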

How the data were processed

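The authors deposited raw gene counts for bulk retina and RPE and, for single cells, natural log values (the count per 10000 UMIs, plus 1, logged, and the values show that this step was applied again to its own output). The submitters' processing notes name build mm10, Cell Ranger 2.1, Seurat 3.2.2, bcl2fastq, FastQC, edgeR 3.20.9 and HOMER; no aligner is named in the sources used. Bulk counts were tested with edgeR 4.0.16 (R 4.3.3; TMM, filterByExpr, quasi-likelihood, Benjamini-Hochberg adjustment over all genes), each tissue alone, then jointly for the interaction. Cell names carry the genotype and age, with the prefix other than WT taken as KO. Inverting both log steps gave whole UMI counts, within 0.01, for 99.99999% of values; 4 cells were not whole. Cells were clustered (scanpy 1.11.5, 2000 variable genes, 30 components, leidenalg 0.10.2 at resolution 1.0) and named from fixed markers. Classes with at least 50 cells per library were tested on log2 CPM of summed UMIs by limma 3.58.1 (limma-trend, prior count 2, genes with at least 20 UMIs), with age as a term. No doublet caller was run.

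The members and lists were chosen with earlier results of these data known. Named genes were the 9 members, Adipor1, up to 3 genes per list and tissue with the smallest p, and the 3 genes most alike to a member. The merging of rod and cone bipolar lists, the score gap of 1.0 between classes, the cluster values for rods, the shares by genotype or with a library left out, and the panels of single-cell levels were set after values were seen. Deviations from the group means correlated between same-numbered WT and KO libraries (r 0.108 to 0.291 in retina and 0.332 to 0.701 in RPE). Libraries of different numbers were not compared and no label says what a number shares. Whether the numbers pair the samples is therefore not known, and the main fits are unpaired. Alternatives were DESeq2 1.42.0, limma-voom, other scalings, filters and prior counts, a replicate block, Leiden resolution 0.6, leaving out the 5% of cells with most UMIs, and leaving out libraries. Scripts were tested on simulated data.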

Additional observations from a re-analysis of the deposited data

Results flagged for a closer look

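The effect of the KO differed between the tissues for 2 members by the interaction test. For Vegfa the effect in RPE minus that in retina was -0.94 (log2), with every KO library above the WT libraries in retina and below them in RPE. For Pgf it was -1.20 (log2), with KO libraries above WT in both tissues. No sample stood far from the others of its group in the 36 member groups tested by Dixon's ratio for 4 samples.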

How the results depend on the processing

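Of the 9 members, 7 passed in retina and 3 in RPE with the replicate block, which treats same-numbered WT and KO libraries as pairs. The block changed no member call (Vegfa in RPE at -0.59, adjusted p = 0.02 by edgeR). Same-numbered retina and RPE libraries of a genotype correlated at r -0.106 to 0.3. The interaction passed for 4 members by DESeq2 and for 1 to 4 with a library left out; retina kept 7 and RPE 2 to 4. Fitted with both tissues, 5 retina members passed, and all-gene counts went from 5990 to 2731 in retina and from 1278 to 2863 in RPE (2701 by DESeq2); RPE counts were 720, 696, 834 and 645 without KO library 1, 2, 3 or 4 and 2130 without WT library 1. Scaling by library totals alone put the median of all genes at 0.114 in retina, -0.177 for the interaction (14.2% of calls higher, against 35.2%) and -0.246 for the tissue contrast, from 0.0036, -0.0532 and 0.0127. The cause of these shifts was not tested.

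Small differences that did not pass changed sign. Tek in retina was 0.02 with library totals alone. In RPE, Flt1 was 0.00041 with DESeq2 size factors in edgeR, 0.00024 by DESeq2, -0.01 by limma-voom and -0.01 with the replicate block, and Angpt2 was -0.01 by limma-voom and -0.01 with the block. With a library left out, Flt1 in RPE ran from -0.17 to 0.11, Kdr from -0.11 to 0.29, Angpt2 from -0.10 to 0.29 and the tissue difference of Flt1 from -0.14 to 0.07. In single-cell classes edgeR gave 1 passing pair and Kdr in Müller glia -0.01, Flt1 in amacrine 0.18, Angpt1 in amacrine -0.36 and Vegfb in rod cells -0.08. Leiden resolution 0.6 gave Kdr -0.03 in Müller glia and 0.26 in rods, and a prior count of 0.5 gave Kdr 0.17 in rods. Without the 5% of cells with most UMIs, Angpt2 in amacrine was -0.03 and Kdr in bipolar cells 0.06. With an age left out, 0 to 1 pairs passed; Müller glia ran from -0.30 to 0.03 (Vegfa), -0.23 to 0.02 (Flt1) and -0.07 to 0.15 (Kdr), amacrine from -0.23 to 0.18 (Pgf), -0.76 to 0.23 (Flt1), -0.52 to 1.11 (Angpt1) and -0.02 to 0.64 (Angpt2), bipolar Kdr from -0.28 to 0.22, cone Vegfa from -0.03 to 0.41, rod Vegfb from -0.65 to 1.65 and rod Kdr was 1.02.

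Shares of a member's UMIs without the 5% of cells with most UMIs were 29.0% for Vegfa in Müller glia, 27.0% for Vegfb in amacrine, 37.0% for Pgf in Müller glia, 28.7% for Flt1 in endothelial cells, 79.6% for Kdr in Müller glia, 38.9% for Angpt1 in bipolar, 8.61% for Angpt2 in horizontal and 91.4% for Tek in endothelial cells; at Leiden resolution 0.6 Kdr in Müller glia was 72.6%. In WT and in KO libraries alone, chosen after seeing the data, these shares were 22.2% and 30.7% (Vegfa), 8.92% and 43.9% (Pgf), 58.5% and 49.7% (Flt1), 63.9% and 74.4% (Kdr), 43.7% and 22.4% (Angpt1), and 6.25% and 58.7% (Serpinf1 in astrocytes). With 1 library left out, also added, they ran from 24.6 to 28.1% (Vegfa), 27.0 to 29.3% (Vegfb), 21.3 to 38.3% (Pgf), 49.9 to 57.1% (Flt1), 65.2 to 73.5% (Kdr), 30.3 to 37.5% (Angpt2) and 13.2% (without KO at 25 days) to 48.9% (Serpinf1). Leaving out the cells with most UMIs removes more of the deep classes, such as horizontal and endothelial cells, so their lower shares partly follow from the setting. Low counts limit Pgf and Angpt1 in retina, and 8 to 17 endothelial cells limit the 30-day libraries.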
